A study of Mus musculus with 6 samples.

Results

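The FGF signalling genes described here are 39 protein-coding genes chosen by name, which are 17 secreted FGF ligands, 4 intracellular FGFs, 4 receptors, 3 adaptors, 9 feedback inhibitors and 2 ETS transcription factors, out of 22264 coding genes in the annotation. All 39 were found in it. Each gene was described by the ATAC-seq peaks that lay within 1 kb of the start of any of its protein-coding transcripts (start peaks), between its ends but outside those windows (body peaks), or within 10 kb of its ends (flank peaks). ATAC-seq maps accessible chromatin through the sites where the Tn5 transposase inserts adapters. The 6 libraries, 2 technical replicates for each of 3 cell states, were summarised by the authors as a single peak list per state. ESCs were the J1 line of strain 129SV, grown in serum and LIF with 2i, which is the GSK3 inhibitor CHIR99021 and the MEK inhibitor PD0325901. D-EPSCs were converted from these ESCs in N2B27 with KSR, where LIF and CHIR99021 were joined by minocycline hydrochloride and dimethindene maleate, and PD0325901 is not listed. L-EPSCs were converted from the same line in DMEM/F12 with KSR, LIF, both 2i inhibitors and, in addition, XAV939, SB203580, A-419259 and JNK inhibitor VIII. EPSCs were kept without feeders before ATAC-seq. The study grew ESCs on feeders or on gelatin and does not say which served for ATAC-seq. All 3 states share LIF, CHIR99021 and the 1 parental line. Each state is 1 culture history, and any single agent cannot be told apart from the rest of its medium.

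Secreted FGFs bind receptor tyrosine kinases of the FGFR family together with heparan sulphate or Klotho co-receptors, and the signal passes through the adaptor Frs2 to RAS, MEK and ERK. ERK activity induces its own inhibitors, the Sprouty and Spred proteins and the Dusp phosphatases, as well as the ETS factors Etv4 and Etv5. In mouse embryonic stem cells Fgf4 is the main ligand made by the cells themselves, and FGF-ERK signalling moves them out of the naive state, which is why a MEK inhibitor is part of 2i.

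The sequences that follow are stretches of peaks that at least 1 list lacked at that place or, at Spred1, held only outside the start window, and show the range of CpG content among them. They run 5′ to 3′ on the gene's strand, come from NCBIM37 (the assembly of mm9), leave out UTR bases, and carry every CpG in capitals.
Fgf3, coding bases of the ESC start peak, chr7:152024613-152024822, plus strand: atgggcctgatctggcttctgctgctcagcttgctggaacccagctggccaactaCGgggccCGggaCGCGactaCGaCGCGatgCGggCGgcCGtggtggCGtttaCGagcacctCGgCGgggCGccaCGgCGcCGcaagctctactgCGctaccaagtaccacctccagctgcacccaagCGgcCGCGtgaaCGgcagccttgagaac
Fgf10, upstream bases of the first ESC start peak, chr13:119503435-119503505, plus strand: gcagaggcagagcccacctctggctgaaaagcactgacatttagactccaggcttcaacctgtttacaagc
Fgf17, upstream bases of the L-EPSC start peak, chr14:71042076-71042144, minus strand: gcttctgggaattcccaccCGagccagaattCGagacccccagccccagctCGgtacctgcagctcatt
Fgf8, the D-EPSC start peak, chr19:45817659-45817794, minus strand: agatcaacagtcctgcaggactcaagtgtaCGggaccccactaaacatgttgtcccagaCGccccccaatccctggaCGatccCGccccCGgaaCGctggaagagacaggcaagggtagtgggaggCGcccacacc
Fgf2, coding bases of the L-EPSC start peak, chr3:37247772-37247826, plus strand: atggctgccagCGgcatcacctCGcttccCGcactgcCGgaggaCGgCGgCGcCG
Spry1, upstream bases of the first D-EPSC start peak, chr3:37538649-37538868, plus strand: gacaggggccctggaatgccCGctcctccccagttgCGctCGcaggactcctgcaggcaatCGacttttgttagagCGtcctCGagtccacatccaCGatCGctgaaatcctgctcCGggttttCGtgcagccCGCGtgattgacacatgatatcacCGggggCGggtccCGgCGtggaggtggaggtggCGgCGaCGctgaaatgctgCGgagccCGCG
Spred1, the 300 bp at the middle of the D-EPSC start peak, chr2:116946341-116946640, plus strand: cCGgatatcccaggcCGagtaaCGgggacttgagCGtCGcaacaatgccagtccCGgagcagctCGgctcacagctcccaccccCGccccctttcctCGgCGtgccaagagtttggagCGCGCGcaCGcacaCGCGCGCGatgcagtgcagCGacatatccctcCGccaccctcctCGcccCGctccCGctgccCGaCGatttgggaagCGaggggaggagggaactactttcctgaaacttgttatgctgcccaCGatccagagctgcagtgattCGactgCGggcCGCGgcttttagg
Dusp6, the 300 bp at the middle of the upstream D-EPSC peak, chr10:98724204-98724503, plus strand: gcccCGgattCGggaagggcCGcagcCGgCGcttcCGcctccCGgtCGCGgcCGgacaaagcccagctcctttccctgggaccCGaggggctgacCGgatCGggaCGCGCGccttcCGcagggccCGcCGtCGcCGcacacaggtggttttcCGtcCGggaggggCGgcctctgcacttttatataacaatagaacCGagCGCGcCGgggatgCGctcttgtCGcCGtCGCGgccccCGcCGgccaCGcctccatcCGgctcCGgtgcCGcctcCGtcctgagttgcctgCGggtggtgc
Spry2, the 300 bp at the middle of the intronic D-EPSC peak, chr14:106294194-106294493, minus strand: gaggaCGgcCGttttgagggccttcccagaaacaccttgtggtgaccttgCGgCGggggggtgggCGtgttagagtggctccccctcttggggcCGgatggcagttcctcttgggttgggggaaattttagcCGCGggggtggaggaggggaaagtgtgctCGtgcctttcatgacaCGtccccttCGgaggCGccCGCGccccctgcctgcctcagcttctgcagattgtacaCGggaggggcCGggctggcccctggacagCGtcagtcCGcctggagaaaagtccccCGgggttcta
CpG observed/expected, the number of CpGs relative to what the C and G content of a stretch gives, was 0.959 at Fgf3, 0 at Fgf10, 0.511 at Fgf17, 0.547 at Fgf8 and 1.05 at Fgf2. It was 0.975 at Spry1, 0.999 at Spred1, 1.05 at Dusp6 and 0.606 at Spry2. CpG-rich and CpG-poor stretches thus occurred among the ligands, and the lowest value at an inhibitor was close to that of Fgf8.

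The lists of the EPSCs were longer than that of the ESCs, which touches every count below. Peaks on the autosomes and X numbered 28965 (ESC), 50225 (D-EPSC, 1.73 times as many) and 46601 (L-EPSC, 1.61 times). Their median widths were 369, 364 and 358 bp. The lists hold positions and no scores or replicate values, and the depth behind them is unknown, so that no difference below has a test against replicate spread, and a gene without a peak is only a gene without a called peak. Pluripotency genes had start peaks in 3 of 5 cases in ESCs and 5 of 5 in both EPSC lists, Nanog and Esrrb lacking one in the ESC list. Markers of fibroblasts, which could come from feeders, had start peaks at 2 of 5 genes (ESC), 4 of 5 (D-EPSC) and 1 of 5 (L-EPSC). Primitive endoderm markers had them in 0 of 4, 3 of 4 and 3 of 4 genes, and trophoblast markers in 1 of 3, 3 of 3 and 3 of 3.

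To see which FGF genes had accessible starts in each state, start peaks were counted. They were present at 23 of the 39 genes in the ESC list (59.0%), 33 in the D-EPSC list (84.6%) and 31 in the L-EPSC list (79.5%). Among all coding genes the shares were 51.5%, 63.5% and 60.8% in the same order. The FGF genes lay above the background in each list, and by more in the EPSC lists. This did not hold for members with CpG-rich promoters, which lay below such coding genes in every list, as given below. When each list was reduced to its 28965 widest peaks, the members with a start peak numbered 23, 29 and 27, against 51.5%, 58.7% and 56.3% of all coding genes. This kept ESC peaks down to 128 bp, but D-EPSC peaks only down to 309 bp and L-EPSC peaks to 279 bp, and does not match depth. With only peaks of at least 300 bp, the members with a start peak numbered 17, 30 and 27, against 43.6%, 59.1% and 55.6%. In ESCs the members' share (43.6%) thus equalled the background. A gene had a window at each coding start, up to 6 at Fgfr1 and Fgfr2, and the background was not matched for their number. With the 5′-most start only, the members numbered 21, 32 and 28, and the share of all coding genes was not computed.

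Start peaks in all 3 lists were found at 21 of the 39 genes, against 50.4% of coding genes. A further 8 genes (20.5%) had start peaks in both EPSC lists but not in ESCs, against 9.16% of coding genes. With lists of equal length, the 28965 widest peaks of each, these fell to 5 genes (12.8%), against 6.09% of coding genes. D-EPSCs alone had a start peak at 3 genes (background 3.34%) and L-EPSCs alone at 1 (0.934%). ESCs shared a start peak with D-EPSCs alone at 1 gene (0.530%) and with L-EPSCs alone at 1 gene (0.274%). At no member did ESCs alone have a start peak, and only 0.296% of coding genes were of that kind. The remaining 4 genes had none, against 35.0% of coding genes.

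**Figure D1:**
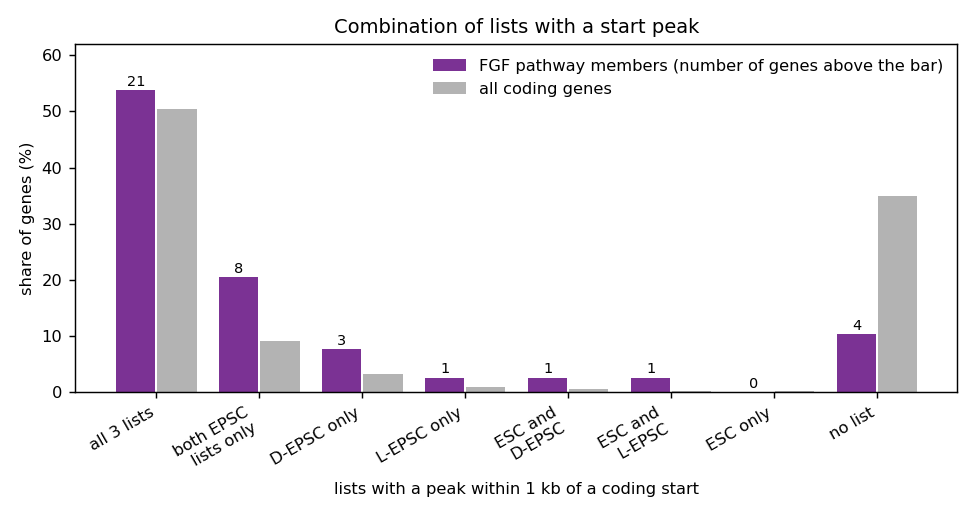
Share of genes (%) for each combination of lists with a peak within 1 kb of a coding start, for the 39 FGF pathway genes (purple, with their number above the bar) and for all 22264 coding genes (grey). Both EPSC lists without ESCs took 20.5% of the members and 9.16% of coding genes (12.8% and 6.09% with lists of equal length), and no list took 10.3% and 35.0%.

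Among the secreted ligands, start peaks were present at 7 of 17 (ESC), 12 (D-EPSC) and 11 (L-EPSC). These shares of 41.2%, 70.6% and 64.7% stood beside 51.5%, 63.5% and 60.8% of all coding genes, below the background in ESCs and near it in the EPSC lists. Secreted ligands, 17 of the 39 members, held 4 of the 8 genes that had start peaks in both EPSC lists only (Fgf2, Fgf9, Fgf16 and Fgf22). The others were the intracellular Fgf14, the receptor Fgfr3 and the inhibitors Spry1 and Spred1. With lists of equal length, Fgf22 was the only secreted ligand among the 5 genes left.

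Fgf4, the ligand that embryonic stem cells make for themselves and a target of Oct4 and Sox2, had a start peak in every list. It was widest in ESCs, at 784 bp, against 424 bp (D-EPSC) and 429 bp (L-EPSC). The ESC peak ran from 362 bp upstream to 421 bp downstream of the start, whereas the D-EPSC peak ended 96 bp and the L-EPSC peak 91 bp downstream. The upstream edges lay 362, 327 and 337 bp before the start, so the ESC peak was the longer one on its downstream side. Further peaks lay upstream in both EPSC lists and not in ESCs, from 4172 to 3210 bp before the start in D-EPSCs (963 bp) and as a pair of 118 and 227 bp in the same region in L-EPSCs.

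L-EPSCs alone had a body peak in Fgf4, of 421 bp, at chr7:152050227-152050647, from 2936 to 3356 bp after the start, with its midpoint in the UTR. Oct4 and Sox2 are known to act together on an enhancer in the untranslated end of Fgf4. This peak was the only one of all member peaks to hold a SOX word (CTTTGTT or CATTGTT) within 20 bases of an octamer word (ATGCAAAT or ATGCTAAT), searched exactly and on both strands in 401 bp around peak midpoints. The match, with both words in capitals and 3 bases between them, lies at chr7:152050299-152050316 on the plus strand.
Fgf4, SOX and octamer words in the L-EPSC peak: CTTTGTTtggATGCTAAT
Such a pair occurred in 0.142% of all L-EPSC peaks, 0.127% of D-EPSC peaks and 0.145% of ESC peaks.

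Fgf3, a ligand of the FGF7 subfamily known from inner ear development and named by the study, lies upstream of Fgf4 on the same strand. The study names Fgf3 and Fgf10 among its ESC signature genes, chosen by expression, accessibility and active histone marks together. Only the peak lists are described here. Fgf3 had a start peak of 216 bp in ESCs and of 433 bp in L-EPSCs, and none in D-EPSCs. The ESC peak ran from 619 to 834 bp after the 5′-most start and the L-EPSC peak from 679 to 1111 bp, so they overlapped in the coding exon shown above. The D-EPSC peak nearest to a start was 7548 bp away, downstream of the gene, where L-EPSCs also had a peak and ESCs had none. A peak between Fgf3 and Fgf4, with its midpoint 9.8 kb (ESC) upstream of the Fgf4 start, was in all 3 lists at 384, 340 and 365 bp.

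Fgf15, the endocrine FGF of the mouse gut, which lies downstream of Fgf4, had start peaks of 174 bp (ESC), 819 bp (D-EPSC) and 550 bp (L-EPSC). Each lay upstream of the start, the closest edge at 364, 96 and 42 bp. Peaks of 186, 502 and 707 bp stood further upstream, their nearest edges 7340, 7335 and 7328 bp before the start. Here both EPSC lists had the wider peaks, the opposite order to the start of Fgf4.

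**Figure D2:**
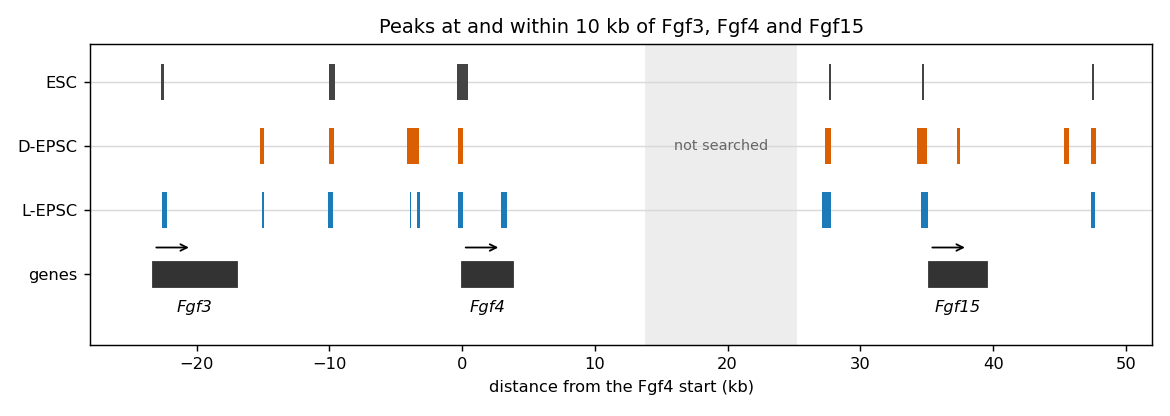
Peaks of ESCs, D-EPSCs and L-EPSCs (boxes, to scale) at and within 10 kb of Fgf3, Fgf4 and Fgf15, by distance from the Fgf4 start in kb; black boxes are genes, arrows their direction, and the grey stretch was not searched. The Fgf3 start has a peak in ESCs and L-EPSCs only, and the L-EPSC row alone has a peak at the end of Fgf4.

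Fgf10, a mesenchymal ligand of lung and limb development also named by the study, had start peaks in ESCs and D-EPSCs and none in L-EPSCs. ESCs had a pair of peaks of 213 bp each, and D-EPSCs a single peak of 1074 bp, from 363 bp upstream to 710 bp downstream of the start, that covered both. The nearest L-EPSC peak was 8618 bp away, at a site upstream of the coding start where ESCs also had a peak (499 and 669 bp) and D-EPSCs had none. The fibroblast markers Thy1 and Twist2 had start peaks in the same pair of lists as Fgf10, of 425 and 328 bp and of 310 and 680 bp, and none in L-EPSCs. Of the other 3 fibroblast markers, Col1a1 had start peaks in D-EPSCs (522 bp) and L-EPSCs (992 bp), Col1a2 in D-EPSCs only (555 bp) and Prrx1 in no list. The part of fibroblast chromatin in the Fgf10 peaks was not tested. With peaks of at least 300 bp only, Fgf10 kept its D-EPSC peak alone and Fgf3 its L-EPSC peak alone.

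Of the other ligands of the FGF7 subfamily, Fgf22 had start peaks in both EPSC lists, of 412 bp (D-EPSC) and 306 bp (L-EPSC), which both overlapped the start. ESCs had none there, the nearest being 8429 bp away and within 1 kb of the start of the neighbour Polrmt. Fgf7, the keratinocyte growth factor, had no start peak in any list. A peak in its intron, with its midpoint 18.7 kb after the start in ESCs, was present in ESCs (240 bp) and D-EPSCs (297 bp) and absent from the L-EPSC list.

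Fgf1 and Fgf2, the acidic and basic FGFs, both lacked a start peak in ESCs. At Fgf1 D-EPSCs had a start peak of 320 bp, and the nearest L-EPSC peak was 1303 bp away, just outside the window. Fgf1 had 1 body peak in ESCs, 8 in D-EPSCs, the most of all members in that list, and 6 in L-EPSCs. All were intronic, and 4 sites were in both EPSC lists and not in ESCs. At Fgf2 the start peaks of D-EPSCs (308 bp) and L-EPSCs (167 bp) did not overlap, lying 25 to 332 bp and 392 to 558 bp after the start. With starts of transcripts of every type, Fgf2 had start peaks in all 3 lists, and with lists of equal length in none.

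Fgf8 and its relatives Fgf17 and Fgf18 pattern the midbrain, limb and somites. Fgf8 had a start peak in D-EPSCs only, of 136 bp, 254 bp upstream of the nearest start, and the sequence above is this whole peak. The nearest peak was 6444 bp away in ESCs, where it lay within 1 kb of the start of the neighbour Npm3, and 3436 bp in L-EPSCs. Fgf17 had a start peak in L-EPSCs only, of 254 bp, reaching from 69 bp upstream to 184 bp downstream of the start. Neither Fgf8 nor Fgf17 kept a start peak with peaks of at least 300 bp only or with lists of equal length. Both EPSC lists shared a peak upstream of Fgf17, 4888 and 4892 bp from the start, that ESCs lacked. ESCs alone had another upstream peak, of 226 bp, 3290 bp from the start. Fgf18 had some of the widest start peaks, of 730 bp (ESC), 1898 bp (D-EPSC) and 1881 bp (L-EPSC). Its ESC peak stopped 532 bp short of the nearest start, while both EPSC peaks ran across it.

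Fgf9, Fgf16 and Fgf20 form another subfamily. Fgf9, needed for testis and lung development, had 2 start peaks in each EPSC list, the widest of 450 bp (D-EPSC) and 275 bp (L-EPSC), while 71188 bp separated its starts from any ESC peak. These widest peaks lay at different sites, and at the shared site the widths were 297 bp (D-EPSC) and 275 bp (L-EPSC). With the 5′-most start only, Fgf9 had a start peak in 1 list. Fgf16 also had start peaks in the EPSC lists alone, of 121 bp in D-EPSCs and of 354 and 292 bp in L-EPSCs, which did not overlap those of D-EPSCs. Of the 8 genes with start peaks in both EPSC lists only, 6 had overlapping peaks in the pair of lists, the other two being Fgf2 and Fgf16. Fgf20 had 2 start peaks in every list, the widest being 937, 1050 and 1199 bp. The peak at its first start also lay within 1 kb of the start of the neighbour Efha2.

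Fgf23, the bone-derived hormone of phosphate balance, had narrow start peaks of 239, 273 and 141 bp in ESCs, D-EPSCs and L-EPSCs. It was the only member besides Fgf4 whose peak was narrower in L-EPSCs than in ESCs. Fgf21, the hormone of fasting liver, had no start, body or flank peak in any list. Fgf6, a ligand of skeletal muscle, had only a body peak of 466 bp in D-EPSCs.

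The intracellular FGFs (Fgf11 to Fgf14) are not secreted and bind voltage-gated sodium channels. Fgf11 had start peaks of 168, 819 and 375 bp in ESCs, D-EPSCs and L-EPSCs, all inside the gene and 606 to 860 bp from a start. Fgf13 had start peaks in all 3 lists, the widest of 456, 980 and 692 bp, at an internal start far from its 5′ end (midpoint of the ESC peak at 434 kb). Fgf14 had them in D-EPSCs (738 bp) and L-EPSCs (420 bp) and not in ESCs, whose nearest peak was 65498 bp away, and its body peaks numbered 1, 3 and 4. Fgf12 was counted among the genes without a start peak, but a peak of 754, 768 and 744 bp stood just beyond the window in the 3 lists, 1004, 1085 and 1141 bp from the start.

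**Figure D3:**
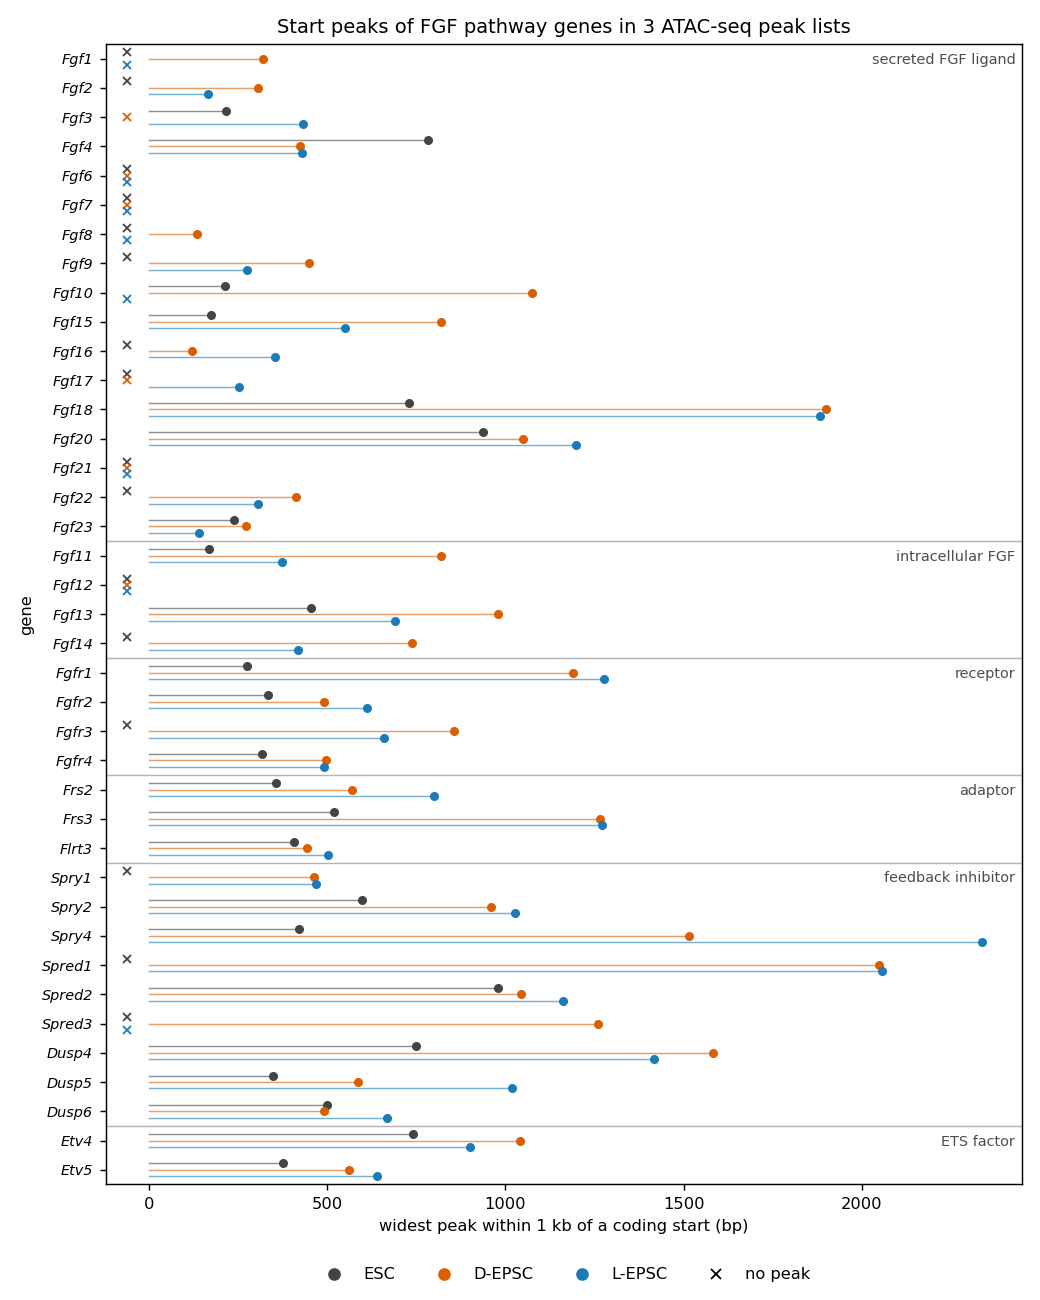
Widest peak within 1 kb of a coding start (bp) for each of the 39 genes, by role, in ESCs (grey), D-EPSCs (orange) and L-EPSCs (blue), with crosses where a list had no peak. Most grey points lie to the left of the coloured ones, Fgf4 (784 bp in ESCs) is the widest exception, and Spry4 in L-EPSCs (2337 bp) is the widest peak of all.

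The 4 receptors all had start peaks in both EPSC lists, and Fgfr3 alone lacked one in ESCs. Fgfr1 is the main FGF receptor of pluripotent cells, and Fgfr2 marks the primitive endoderm. At Fgfr1 the widest start peak was 276 bp (ESC), 1190 bp (D-EPSC) and 1276 bp (L-EPSC). These peaks began 4985, 4956 and 4991 bp into the gene, near an internal start, and the EPSC peaks extended further downstream, to 6145 and 6266 bp against 5260 bp in ESCs. Fgfr1 also had 3 body peaks in ESCs and 5 in each EPSC list, those with midpoints at 23.4 and 42.1 kb (D-EPSC) from the 5′ end being in both EPSC lists and not in ESCs. ESCs alone had a peak of 275 bp just upstream of the 5′-most start of Fgfr1.

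At a start near the 5′ end of Fgfr2 the peaks were 336, 492 and 546 bp in the same order. The widest L-EPSC start peak of Fgfr2, of 611 bp, lay at another site, 754 bp from a start, and the D-EPSC peak that overlapped it, of 799 bp, counted as a body peak because it was 1011 bp from a start. Body peaks of Fgfr2 numbered 1 (ESC), 4 (D-EPSC) and 3 (L-EPSC), and those with midpoints at 14.5 and 50.7 kb (D-EPSC) were in both EPSC lists and not in ESCs. These counts leave out a transcript of Fgfr2 annotated over 3.01 Mb, which spans other genes. Fgfr3, best known for restraining bone growth, had a start peak of 857 bp (D-EPSC) and 659 bp (L-EPSC), both across the 5′-most start, while any ESC peak was at least 58572 bp from its starts. Fgfr4 had peaks of 317, 497 and 491 bp at its first start, and both EPSC lists had another near an internal start, of 414 and 436 bp, that ESCs lacked.

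The adaptors Frs2 and Frs3, which dock to activated receptors, and Flrt3, a transmembrane protein that binds FGF receptors, had start peaks in all 3 lists. The widest were 356, 571 and 800 bp at Frs2 and 408, 443 and 502 bp at Flrt3. Frs3 had peaks of 440, 1265 and 1270 bp near its 5′-most start, also within 1 kb of the start of Tomm6, and of 520, 823 and 933 bp at an internal start. Both EPSC lists had a peak in a coding exon of Frs3, of 1163 and 581 bp, where ESCs had none.

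Feedback inhibitors had start peaks at 6 of 9 genes (ESC), 9 (D-EPSC) and 8 (L-EPSC), which is 66.7%, 100% and 88.9% beside 51.5%, 63.5% and 60.8% of all coding genes. Spry1, an inhibitor of receptor signalling to RAS, had no ESC peak nearer than 17131 bp. Both EPSC lists had 2 start peaks there, of 301 and 464 bp in D-EPSCs and of 469 and 341 bp in L-EPSCs, of which the first spans the CpG-rich upstream bases printed above. Another peak, of 413 and 344 bp, began 3004 and 2929 bp into Spry1, in its coding exon.

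Spry2 had start peaks of 599, 961 and 1028 bp in ESCs, D-EPSCs and L-EPSCs, and an intronic peak 1540 bp after the start in D-EPSCs (305 bp) and L-EPSCs (297 bp) only. Spry4 had start peaks of 421, 1516 and 2337 bp, the last being the widest of all members in that list, and the start of the neighbour 9630014M24Rik lay within 1 kb of each. Spred1, a RAS inhibitor that recruits neurofibromin, had start peaks of 2047 bp in D-EPSCs, the widest of all members there, and 2056 bp in L-EPSCs. The ESC list did hold a peak of 413 bp inside the same stretch, but it ended 1070 bp before the start and so outside the window. Spred2 had 2 start peaks in each list, the widest of 979, 1045 and 1161 bp, and the first of these was the widest start peak of the members in ESCs. Its body peaks numbered 1, 4 and 7.

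Spred3 had a start peak in D-EPSCs only, of 1260 bp and 230 bp from the start. ESCs and L-EPSCs had peaks of 615 and 833 bp that overlapped it but lay 1109 and 1019 bp from the start, and all 3 peaks were within 1 kb of the start of Ggn. The Spred1 and Spred3 differences are therefore differences in where a peak ended, and with a window of 2.5 kb both genes, and Fgf12, had start peaks in all 3 lists.

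The Dusp phosphatases, which remove phosphate from ERK, had start peaks in every list. Dusp4 had peaks of 749, 1581 and 1418 bp in ESCs, D-EPSCs and L-EPSCs, and an intronic peak, 8.91 kb (D-EPSC) from the start, in both EPSC lists only, of 588 and 419 bp. Dusp5 had widest peaks of 350, 586 and 1018 bp. At Dusp6, the phosphatase most used as a readout of FGF-ERK activity, the start peaks were 499, 492 and 669 bp wide, close in ESCs and D-EPSCs and wider in L-EPSCs. Both EPSC lists had a further CpG-rich peak upstream of Dusp6, which reached from 1991 to 1030 bp before the start in D-EPSCs (962 bp) and appeared as 132 and 689 bp in L-EPSCs. They also had an intronic peak that began 2137 and 2180 bp after the start, of 224 and 210 bp. ESCs had neither peak.

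The ETS factors Etv4 and Etv5, which ERK signalling induces, had start peaks in all 3 lists. They were 741, 1040 and 902 bp wide at Etv4, with an intronic peak, 12.8 kb from the start, in D-EPSCs (552 bp) and L-EPSCs (479 bp) only. At Etv5 the widest start peaks were 376, 562 and 640 bp. Etv5 had 4 body peaks in ESCs and 7 in each EPSC list, the same 4 sites in all lists and 3 more in both EPSC lists.

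**Figure D4:**
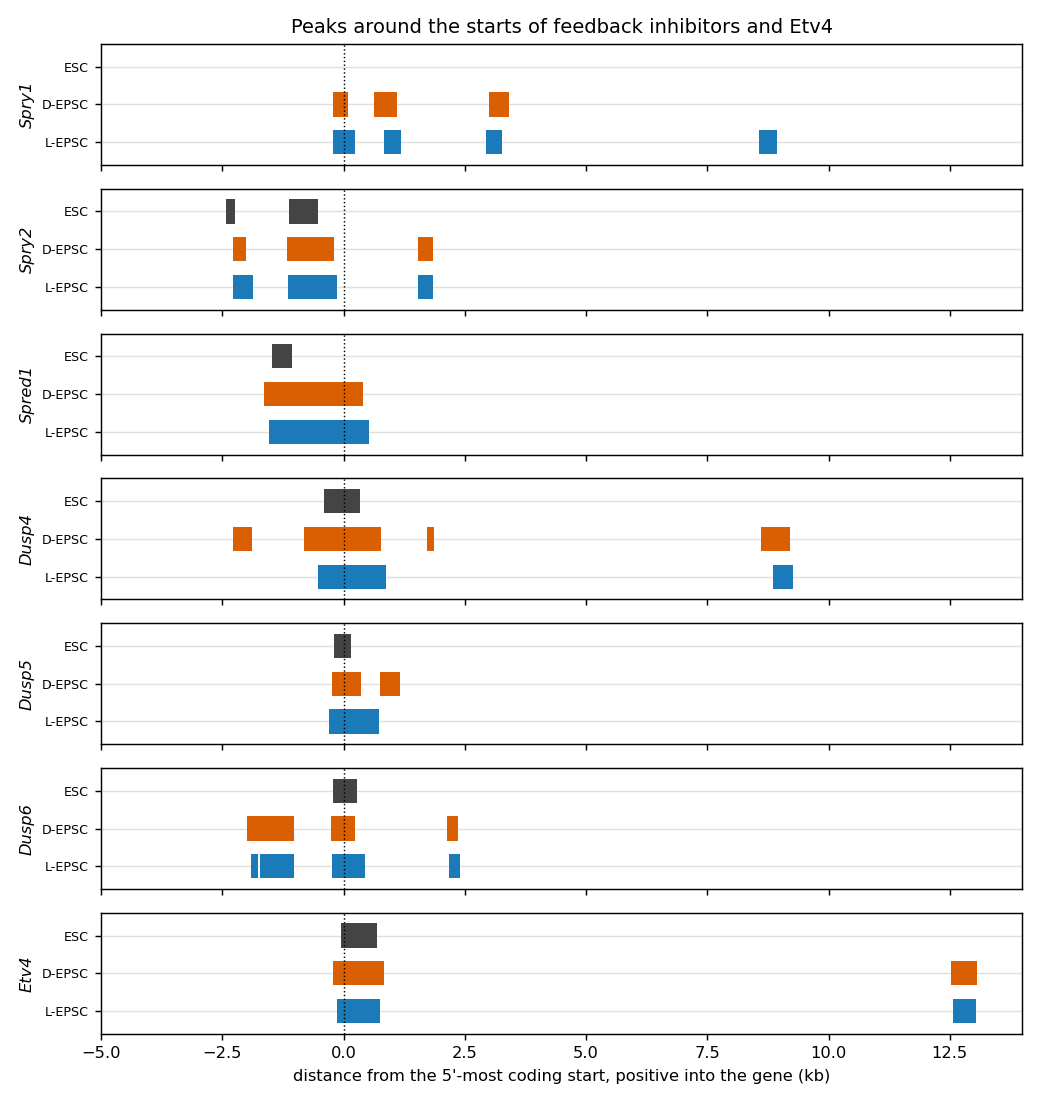
Peaks (boxes, to scale) of ESCs, D-EPSCs and L-EPSCs by distance in kb from the 5′-most coding start (dotted line), positive into the gene, for Spry1, Spry2, Spred1, Dusp4, Dusp5, Dusp6 and Etv4. The intronic peaks of Spry2, Dusp4, Dusp6 and Etv4 and the upstream peaks of Dusp6 appear in the EPSC rows and not in the ESC row.

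Over the 21 genes with start peaks in all 3 lists, the median of the widest start peak was 421 bp (ESC), 819 bp (D-EPSC) and 800 bp (L-EPSC). Over the 11231 coding genes with start peaks in all lists it was 547, 789 and 742 bp. The members' median was thus lower than theirs in ESCs and near it in the EPSC lists. Of these coding genes, 82.8% (D-EPSC) and 77.4% (L-EPSC) had a wider one than in ESCs. The members' widest start peak was wider than in ESCs at 19 genes in D-EPSCs and at 19 in L-EPSCs. It did not overlap the widest ESC peak at Frs3 in both EPSC lists, at Fgf20 in D-EPSCs and at Fgfr2 in L-EPSCs, and of the 19 genes left in each list it was wider at 17. The median ratio to ESCs was 1.6 in D-EPSCs and 1.72 in L-EPSCs, and over those coding genes it was 1.36 and 1.27. The exceptions were Fgf4 in both EPSC lists (ratios 0.541 and 0.547), Dusp6 in D-EPSCs (0.986) and Fgf23 in L-EPSCs (0.59). The highest ratios were those of Fgf11 in D-EPSCs, at 4.88, and Spry4 in L-EPSCs, at 5.55.

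**Figure D5:**
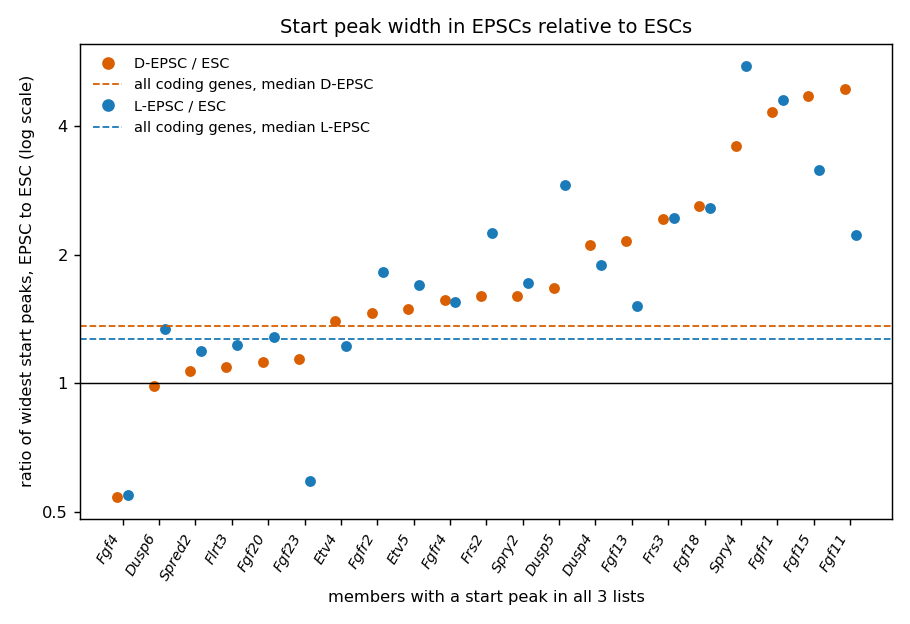
Ratio of the widest start peak in D-EPSCs (orange) or L-EPSCs (blue) to that in ESCs, on a log axis, for the 21 genes with start peaks in all 3 lists, ordered by the D-EPSC ratio. Dashed lines are the medians of all coding genes (1.36 and 1.27), and Fgf4 is the only gene below 1 in both.

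Away from the starts, the 39 genes held 20 (ESC), 54 (D-EPSC) and 56 (L-EPSC) body peaks, which is 0.76, 2.05 and 2.13 per 100 kb of gene. All coding genes held 0.837, 1.73 and 1.62 per 100 kb. Starts of other genes were not left out, for members or for all coding genes. Within 1 kb of such starts lay an Fgf2 body peak of all lists (Bbs12, Cetn4) and the L-EPSC body peak of Fgf17 (Epb4.9). So did flank peaks of Fgf8 (Npm3), Fgf11 (Chrnb1) and Fgf22 (Polrmt, Rnf126). Flank peaks, with the one between Fgf3 and Fgf4 counted for both genes, numbered 19, 34 and 34 (18, 33 and 33 distinct peaks), a ratio to ESCs of 1.79 in both EPSC lists, near the 1.74 and 1.64 of all coding genes. With lists of equal length (the 28965 widest peaks), the body peaks numbered 20, 26 and 38, or 0.76, 0.988 and 1.44 per 100 kb beside 0.837, 0.785 and 0.824 for all coding genes. The 4 intracellular FGFs took 1496046 of the 2630399 bp of member genes and held 0.134, 0.267 and 0.334 body peaks per 100 kb in the full lists, while each of the other roles was above all coding genes in every full list. Leaving out regions that reached within 1 kb of a start of the gene, body and flank peaks fell into 111 regions, of which 28 were in all 3 lists (25.2%, against 28.3% for all coding genes), 33 in both EPSC lists only (29.7%, against 19.5%) and 2 in ESCs only (1.80%, against 5.13%).

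Regions in both EPSC lists only were 15 of the 38 regions at the feedback inhibitors and ETS factors (39.5%), 6 of the 15 at the receptors (40.0%), 9 of the 39 at the secreted ligands (23.1%), 2 of the 10 at the intracellular FGFs (20.0%) and 1 of the 9 at the adaptors (11.1%), against 19.5% for all coding genes. The 38 regions at feedback inhibitors and ETS factors included none found in ESCs only.

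The promoter sequence of the members was then set beside that of all genes, in 1001 bp around the 5′-most coding start. The median CpG observed/expected was 0.656 for the members and 0.554 for all coding genes. Of the 22 members at or above 0.6, 15 (68.2%, ESC), 21 (95.5%, D-EPSC) and 20 (90.9%, L-EPSC) had start peaks. The shares of such coding genes were 84.1%, 97.2% and 95.4%, so these members lay below them in every list. Of the 17 members below 0.6, 8 (47.1%), 12 (70.6%) and 11 (64.7%) had start peaks, above the 23.8%, 34.7% and 31.3% of such coding genes. The CpG class was taken at the 5′-most start, while a start peak could lie at any start, as at Fgfr1.

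The ETS word CCGGAAG was present on either strand in 2 of the 39 member promoters, those of Fgf17 and Frs2, and in 19.2% of all promoters. The TCF/LEF word CTTTGAT was in 2, those of Fgf6 and Fgfr1, against 11.1%, and the AP-1 word TGACTCA in 4, against 12.0%. SOX words were in 9 (25.0% of all promoters) and octamer words in 2 (5.98%). These matches describe the letters in a window, and no factor was measured.

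Other genes of the pathway, 40 in number, had start peaks at 32 genes in ESCs and 38 in each EPSC list, beside 51.5%, 63.5% and 60.8% of all coding genes. Of the 40, 32 had them in all 3 lists and 6 in both EPSC lists only, the combinations of 50.4% and 9.16% of all coding genes. The 20 genes listed for the RAS-ERK cascade, among them the adaptor gene Grb2, had them in all lists. Early ERK target genes had them at 4 of 7 in ESCs and 7 of 7 in both EPSC lists, the 3 that ESCs lacked being Ier2 (690 bp (D-EPSC) and 363 bp (L-EPSC)), Ier3 (373 and 353 bp) and the phosphatase gene Dusp2 (738 and 429 bp). Among co-receptors and binding proteins, the decoy receptor Fgfrl1 (711 and 1108 bp) and the FGF23 co-receptor Kl (504 and 376 bp) had start peaks in the EPSC lists only, and Klb and Fgfbp1 had none. Ndst1, which modifies heparan sulphate, had them in the EPSC lists only, at 1303 and 899 bp, and the other 7 heparan sulphate genes had them in all lists.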

How the data were processed

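ATAC-seq peak lists of ESCs, D-EPSCs and L-EPSCs were used. Per the labels and the study's methods, the authors aligned paired reads to mm9 with Bowtie2 2.3.5, filtered alignments using SAMtools 1.10, and ran MACS for peak calling with default settings. How the 2 technical replicates of a state were combined, and whether duplicates were removed, is not given in the sources used here. The lists the authors deposited give only the first and last position of every peak, with no count, score or p-value, so no test was made and depth is unknown. Peaks of the nuclear chromosomes were kept and widths taken from the coordinates. Genes came from GENCODE M1 on NCBIM37, the same assembly. Overlapping entries of 1 symbol were merged (96 entries) and 2 transcripts over 2.5 Mb were left out. A peak belonged to a start when at least 1 bp fell within 1 kb of it. The analysis ran in Python 3.11.15 with pysam 0.24.0, numpy 2.4.6 and matplotlib 3.10.9. The overlap steps were tested on simulated data and against bedtools 2.31.1. Alternatives varied the window, starts, overlap, flank and peak set. Values were given for every member whose lists differed at the start, for Fgf3, Fgf10, Fgf4 and the receptors, for the members with most body peaks, for the widest start peaks and, chosen after their values were seen, for the other members. The members and lists were chosen with earlier results of these data known.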

Additional observations from a re-analysis of the deposited data

Results flagged for a closer look

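The start peaks of Fgf3 and Fgf10 moved in opposite directions in the pair of EPSC states. The summed width of start peaks at Fgf3 was lower than in ESCs in D-EPSCs (-216 bp, no peak) and higher in L-EPSCs (217 bp). At Fgf10 it was higher in D-EPSCs (648 bp) and lower in L-EPSCs (-426 bp, no peak). The ESC peaks at both genes were narrow, and with peaks of at least 300 bp ESCs had a start peak at neither gene, so that the lower values were no longer there. With a single list per state, the difference between the EPSC states was not tested.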

How the results depend on the processing

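Of 122 values recomputed, 102 stayed within 1.5 times, and the recomputed width ratios stayed above 1. With peaks of at least 300 bp, body peaks numbered 11, 28 and 34 in ESCs, D-EPSCs and L-EPSCs, flank peaks 12 in ESCs and 19 in L-EPSCs, members with a start peak in 1 EPSC list only 7, in no list 7, and in ESCs but not both EPSC lists 0. With the widest peaks of equal list length, body peaks numbered 26 in D-EPSCs, flank peaks 20 in L-EPSCs, and members with start peaks in both EPSC lists only 5 and in no list 7. Members with a start peak in 1 EPSC list only numbered 7 with the 5′-most start alone and 2 with a window of 2.5 kb. A flank of 50 kb gave 96, 182 and 167 flank peaks. Transcripts of every length, an alternative chosen after seeing the data, gave 65, 136 and 132 body peaks, with D-EPSCs now ahead of L-EPSCs, since the long Fgfr2 transcript takes in other genes. The number of members that kept the same combination of lists at their starts was lowest, at 28 of 39, with peaks of at least 300 bp, and was 33 with the widest peaks. No paired analysis was possible because each state has 1 list with its replicates combined, which also left no replicate to omit. Absence of a peak depends on a depth that is unknown.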
